A study of Mus musculus with 15 samples.

Results

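The skeletal muscle sarcomere and calcium genes are 39 genes for the contractile filaments of striated muscle, the Z-disc that anchors them, the calcium release and uptake system, creatine kinase and myoglobin. They were followed here through 15 samples of mouse brown fat. Each gene was read from the probe sets that carry its symbol alone, and where there were several, from the one with the highest mean over the samples. A usable probe set was found for 38 of the 39, all 38 passed the filter on low values and all 38 were among the 13174 genes tested, of 18194 measured. The expression of Xirp2, a protein of the myotendinous junction and intercalated disc, was not analysed here.

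The tissue was interscapular brown fat of adult male wild-type C57BL/6N mice on a high-fat diet, taken on day 5 and measured on Affymetrix arrays, 1 array per mouse. 5 mice (samples 41 to 45) received the agonistic antibody bFKB1 against the FGFR1/KLB receptor complex (aFGFR1/KLB below) as a single intraperitoneal dose of 10 mg/kg. Another 5 (samples 36 to 40) received human FGF21, a hormone that signals through FGFR1 and its co-receptor KLB, at 1 mg/kg given so that the daily dose was 2 mg/kg. The last 5 (samples 31 to 35) were controls, and what they were injected with is not given. Values are log2 of the deposited normalised intensity, and within each group they are listed in order of sample number. Arrays give no read depth, so the number of arrays limits the precision.

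In striated muscle, myosin thick filaments pull on actin thin filaments that are anchored at the Z-disc, and titin and nebulin act as scaffolds for both. Calcium released from the sarcoplasmic reticulum through the ryanodine receptor binds troponin and lets the filaments engage, and the SERCA pump returns the calcium to the store. Fast and slow muscle fibres build this machine from different genes: most of the myosins, troponins and calcium proteins have a fast and a slow form, and several slow forms are also those of the heart ventricle. Brown adipocytes share a developmental lineage with skeletal muscle but do not assemble sarcomeres, and myoglobin is one muscle gene that brown adipocytes are also known to express.

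Ucp1, the uncoupling protein that defines brown adipocytes, was high in every sample, at 14.52 to 14.82. Of the 12 heart markers measured, 6 lay below the filter level of 5.06 in all 15 samples: Myh6, Myl7, Nppa, Nppb, Tnni3 and Tnnt2. The other 6 passed the filter, among them Myl4 at 6.65 to 8.05, Ryr2 at 5.84 to 7.40 and Actc1 at 5.24 to 7.37. Pax7, the marker of muscle stem cells, stayed at 3.95 to 4.36, and the myogenic factor Myod1 at 4.21 to 5.22. Other regulators of that list ranged higher: Myf6 reached 8.13 and Mef2c 9.92 in aFGFR1/KLB 45, and Vgll2 8.24 in FGF21 36. aFGFR1/KLB 45 and FGF21 36 stood apart as the 2 highest samples for 38 of 38 muscle genes. FGF21 36 and control 34 stood apart in another way, with macrophage markers 1.71 and 1.53 above their medians over the samples and collagen genes 1.57 and 1.42 above, whereas in aFGFR1/KLB 45 these 2 lists lay 0.01 and 0.04 above. The medians over all members, and the fold changes of some named genes, are also given below without single samples.

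The bases around the starts of 4 of the genes are shown because they stand for the patterns described below. They are the thin filament actin Acta1, the fast myosin Myh4, the slow troponin C Tnnc1, and myoglobin (Mb), which is singled out below. Each window holds 250 bases before and 50 after the annotated start, from RefSeq (GRCm38.p6), 5′ to 3′ on the gene's own strand. Capitals mark the motifs searched on both strands: CAGCTG (an E-box of the kind bound by myogenic factors), CATTCC (the TEAD element, GGAATG on the other strand), TATAAA, the CArG box of serum response factor and the MEF2 site, which can overlap TATAAA in the same window.
Acta1 (chr8:123894726-123895025, minus strand): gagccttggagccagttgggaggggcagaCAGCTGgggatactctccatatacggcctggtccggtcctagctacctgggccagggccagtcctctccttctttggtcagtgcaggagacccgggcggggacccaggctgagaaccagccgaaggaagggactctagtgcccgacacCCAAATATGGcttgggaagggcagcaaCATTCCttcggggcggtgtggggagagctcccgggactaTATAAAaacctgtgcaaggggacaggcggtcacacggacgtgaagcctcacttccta
Myh4 (chr11:67237562-67237861, plus strand): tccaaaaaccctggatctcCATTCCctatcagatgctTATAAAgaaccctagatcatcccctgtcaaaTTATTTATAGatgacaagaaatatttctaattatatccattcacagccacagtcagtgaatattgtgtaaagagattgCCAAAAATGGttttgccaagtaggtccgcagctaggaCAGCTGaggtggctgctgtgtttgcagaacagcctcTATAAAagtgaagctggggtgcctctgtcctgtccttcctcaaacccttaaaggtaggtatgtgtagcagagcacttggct
Tnnc1 (chr14:31208062-31208361, plus strand): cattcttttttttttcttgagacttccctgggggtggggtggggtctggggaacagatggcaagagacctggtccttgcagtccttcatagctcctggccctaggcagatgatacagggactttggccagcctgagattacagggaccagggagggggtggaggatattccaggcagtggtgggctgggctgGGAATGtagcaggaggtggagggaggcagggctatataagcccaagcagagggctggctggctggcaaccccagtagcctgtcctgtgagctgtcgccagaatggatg
Mb (chr15:77022738-77023037, minus strand): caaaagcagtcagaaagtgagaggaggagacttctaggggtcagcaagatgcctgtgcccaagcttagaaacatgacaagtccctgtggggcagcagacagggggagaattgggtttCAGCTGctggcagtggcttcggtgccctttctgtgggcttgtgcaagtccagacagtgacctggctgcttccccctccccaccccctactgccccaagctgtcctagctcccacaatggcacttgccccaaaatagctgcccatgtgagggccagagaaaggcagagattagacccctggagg
The Myh4 window held at least 1 match of all 5 motifs, and the Acta1 window a match of every one except the MEF2 site. The Tnnc1 window held 1 TEAD element and no other match, and the Mb window 1 CAGCTG. Mb has 3 annotated windows, of which 2 overlapping ones hold that CAGCTG and the other holds no match. The Mb window shown was chosen from those with that match, a condition not set for the other genes shown. Windows were found for 30 of the 39 genes, Xirp2 among them. CAGCTG occurred in 15 of the 30 (50%), against 18.3% of 27025 genes with a window. The CArG box occurred in 4 (13.3%, against 1.81%): Acta1, Ldb3, Myh4 and Myl3. The MEF2 site occurred in 6 (20%, against 3.70%), CATTCC in 11 (36.7%, against 16.6%) and TATAAA in 7 (23.3%, against 15.7%). These are matches of letters in a fixed window and were not tested as binding sites.

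The muscle genes ranked among the most variable transcripts between these samples. The range of a gene over the 15 samples had a median of 7.08 over the 38 members on the log2 scale, against 0.62 over all genes tested. The 11 genes with the largest range of all were members, and 36 of the top 100 were. The members were chosen with earlier results of these data known, so this ranking is a description only. Myh1, a fast myosin heavy chain, had the largest range of any gene tested, 10.85. Desmin (Des) had the smallest among the members, 2.71, which ranked 358th of the 13174. In a whole tissue piece, fewer cells of a type and less RNA per cell cannot be told apart.

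**Figure D1:**
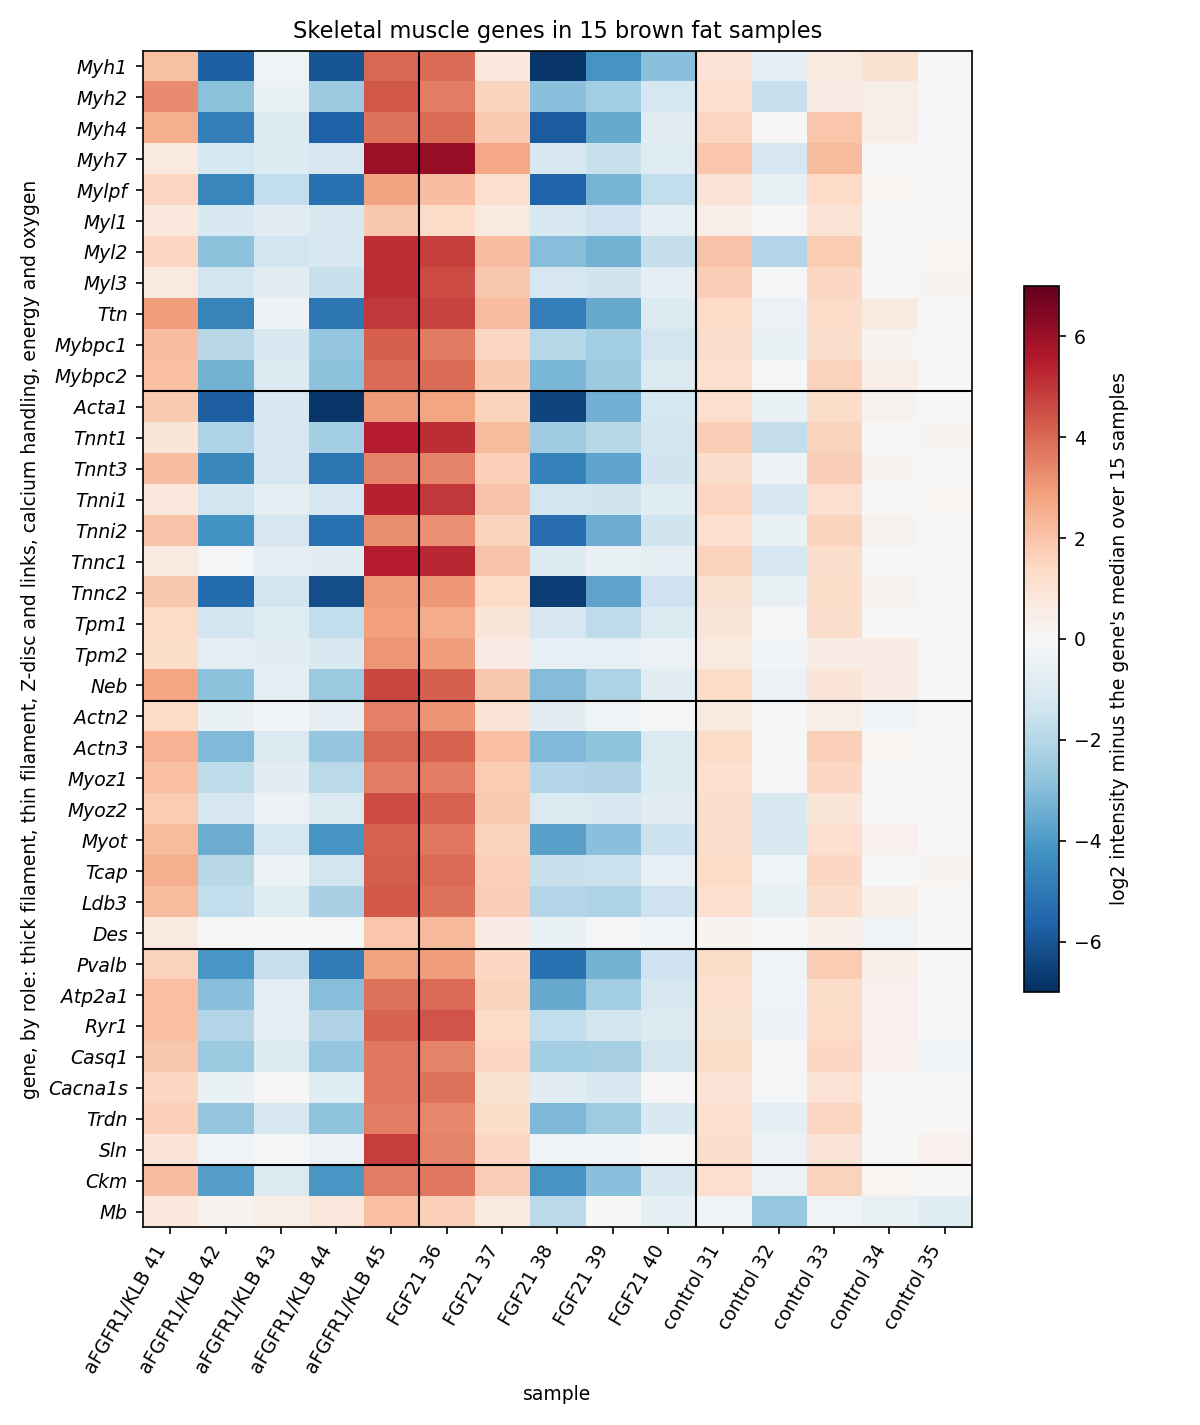
Difference of each sample from the gene's median over the 15 samples (log2, colour scale) for the 38 muscle genes (rows) in the aFGFR1/KLB, FGF21 and control samples (columns). aFGFR1/KLB 45 and FGF21 36 are the 2 highest columns in every row, and the columns of aFGFR1/KLB 42 and 44 and FGF21 38 and 39 are the lowest for most genes.

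The order of the samples was much the same for most members, as the colour map of the 38 genes shows. The highest value was in aFGFR1/KLB 45 for 27 members and in FGF21 36 for the other 11. The lowest was in FGF21 38 for 15, in aFGFR1/KLB 44 for 10, in FGF21 39 for 7, in aFGFR1/KLB 42 for 3 and in control 32 for 3. Relative to each gene's median over samples, the median member lay 3.90 above in aFGFR1/KLB 45 and 3.68 above in FGF21 36, and at -2.46 to -2.24 in aFGFR1/KLB 42 and 44 and FGF21 38 and 39. In those 4 low samples 13 to 19 of the 38 members were below the filter level, against 0 to 3 in the other 11.

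The 2 treated groups held both extremes for most members, and the controls lay between them. The SD within a group, as the median over members, was 2.99 in aFGFR1/KLB samples, 2.76 in FGF21 samples and 0.79 in control samples. Over all genes tested the same medians were 0.111, 0.160 and 0.163, so the wider spread of the treated groups was not seen across the arrays as a whole. The control range was narrower than the aFGFR1/KLB range for 37 members and narrower than the FGF21 range for 38. All 5 controls lay inside the aFGFR1/KLB range for 34 members and inside the FGF21 range for 35. These differences in spread are a description and were not tested.

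Among the thick filament genes, the 3 adult fast myosin heavy chains and the slow one were all highest in aFGFR1/KLB 45 and FGF21 36. Myh1 was at 11.74, 3.96, 9.41, 3.63 and 13.73 in aFGFR1/KLB samples, 13.59, 10.43, 2.88, 5.58 and 6.79 in FGF21 samples and 10.71, 9.01, 10.35, 10.78 and 9.70 in control samples. Myh4, the fastest mouse isoform, was at 12.27, 4.89, 8.77, 4.06 and 13.55 in aFGFR1/KLB samples, 13.64, 11.56, 3.91, 6.23 and 8.95 in FGF21 samples and 11.22, 9.74, 11.68, 10.21 and 9.60 in control samples. Both were lowest in FGF21 38, aFGFR1/KLB 42 and aFGFR1/KLB 44, with all controls between the treated extremes. Myh2, the heavy chain of oxidative fast fibres, was at 10.81, 4.60, 7.03, 4.94 and 11.82 in aFGFR1/KLB samples, 11.04, 9.05, 4.54, 5.03 and 6.22 in FGF21 samples and 8.62, 5.88, 8.03, 7.87 and 7.47 in control samples. Myh1, Myh2 and Myh4 are near-identical neighbours, so their probes may share signal. Myh7, the heavy chain of slow fibres, was at 7.03, 5.09, 5.39, 5.15 and 12.41 in aFGFR1/KLB samples, 12.43, 9.06, 5.22, 4.78 and 5.45 in FGF21 samples and 8.31, 5.16, 8.56, 6.34 and 6.34 in control samples. For Myh7, aFGFR1/KLB 45 and FGF21 36 were far above every other sample, while 3 aFGFR1/KLB samples, 3 FGF21 samples and control 32 lay between 4.78 and 5.45.

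The light chains that stabilise and tune the myosin head were also highest in aFGFR1/KLB 45 and FGF21 36. Mylpf, the fast regulatory light chain, was at 12.06, 5.96, 8.82, 5.33 and 13.36 in aFGFR1/KLB samples, 12.71, 11.64, 4.92, 7.29 and 8.79 in FGF21 samples and 11.49, 10.00, 11.93, 10.66 and 10.53 in control samples. Its slow counterpart Myl2 was at 8.70, 4.40, 5.96, 6.22 and 12.44 in aFGFR1/KLB samples, 12.12, 9.41, 4.32, 3.94 and 5.61 in FGF21 samples and 9.28, 5.20, 9.04, 7.27 and 7.43 in control samples. Myl2 was lowest in FGF21 39, and control 32 was its lowest control. Myl1, the fast essential light chain, was at 12.80, 10.97, 11.24, 10.93 and 13.94 in aFGFR1/KLB samples, 13.38, 12.68, 10.97, 10.61 and 11.36 in FGF21 samples and 12.53, 12.15, 12.98, 12.03 and 12.04 in control samples. Myl1 had the second smallest range of the members, 3.34, and even its lowest sample was far above the filter level. Its slow counterpart Myl3, read from a probe set that may bind related transcripts, was at 7.36, 5.44, 5.89, 5.14 and 11.86 in aFGFR1/KLB samples, 11.28, 8.59, 5.50, 5.32 and 6.10 in FGF21 samples and 8.41, 6.56, 8.14, 6.70 and 6.90 in control samples.

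The myosin binding proteins, which brace the thick filament, and titin, the spring that runs from Z-disc to mid-sarcomere, went with the heavy chains. Mybpc2, the fast form, was at 9.69, 4.33, 6.65, 4.72 and 11.59 in aFGFR1/KLB samples, 11.51, 9.45, 4.39, 5.09 and 6.59 in FGF21 samples and 8.73, 7.50, 9.21, 8.05 and 7.61 in control samples. Mybpc1, the slow form, was at 10.06, 5.95, 6.79, 5.20 and 12.10 in aFGFR1/KLB samples, 11.53, 9.35, 5.89, 5.51 and 6.61 in FGF21 samples and 9.10, 7.37, 9.15, 8.07 and 7.89 in control samples. Mybpc1 did not follow the 7 genes listed here as slow: aFGFR1/KLB 41 was above FGF21 37 for it, as for the fast genes. Ttn had a range of 10.03, the second largest of all genes tested, with 3.40 in aFGFR1/KLB 44 and 13.43 in aFGFR1/KLB 45.

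Among the thin filament genes, Acta1, the skeletal actin, spanned 904-fold. It was at 13.37, 5.72, 10.38, 4.69 and 14.51 in aFGFR1/KLB samples, 14.28, 13.06, 5.09, 8.12 and 10.29 in FGF21 samples and 12.68, 11.06, 12.78, 11.76 and 11.51 in control samples. The 5 controls stayed within 11.06 to 12.78, whereas 2 aFGFR1/KLB samples and 2 FGF21 samples were below 9 and 2 of each were above 13. Tpm1 and Tpm2, the tropomyosins that cover the actin sites, had ranges of 4.65 and 4.12. Tpm1 was at 11.22, 8.44, 8.95, 8.07 and 12.69 in aFGFR1/KLB samples, 12.39, 10.66, 8.61, 8.04 and 8.82 in FGF21 samples and 10.68, 9.67, 11.05, 9.81 and 9.81 in control samples. Another Tpm1 probe set had a mean of 8.68 and a range of 0.83 alone, and a further Tpm2 probe set a range of 7.73, so the probe sets of these genes disagree on the size of the spread. Nebulin (Neb), the ruler of the thin filament, had a range of 7.72, with 3.34 in FGF21 38 and 11.06 in aFGFR1/KLB 45.

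The troponin complex, which binds calcium and moves tropomyosin, is encoded by 3 fast and 3 slow members. Troponin T, its link to tropomyosin, was at 11.89, 5.22, 8.51, 4.66 and 13.20 in aFGFR1/KLB samples, 13.18, 11.38, 4.99, 6.04 and 8.31 in FGF21 samples and 10.92, 9.34, 11.41, 9.88 and 9.70 in control samples for fast Tnnt3. The slow form Tnnt1 was at 7.92, 4.91, 5.89, 4.67 and 12.58 in aFGFR1/KLB samples, 12.24, 9.27, 4.60, 5.05 and 5.76 in FGF21 samples and 8.78, 5.42, 8.64, 7.06 and 7.24 in control samples. In Tnnt1, as in Myh7, control 32 was well below the other 4 controls, and in Tnnt3 it was also the lowest control. Troponin I, the inhibitory subunit, was at 12.05, 5.90, 8.91, 4.86 and 13.31 in aFGFR1/KLB samples, 13.25, 11.62, 4.75, 6.60 and 8.66 in FGF21 samples and 11.18, 9.60, 11.64, 10.34 and 10.07 in control samples for fast Tnni2. The slow form Tnni1 was at 7.16, 5.08, 5.76, 5.27 and 11.83 in aFGFR1/KLB samples, 11.36, 8.45, 5.18, 5.03 and 5.57 in FGF21 samples and 7.95, 5.31, 7.60, 6.43 and 6.55 in control samples. Troponin C, the calcium sensor, followed the same division. Fast Tnnc2 was at 12.68, 5.39, 9.54, 4.61 and 13.80 in aFGFR1/KLB samples, 13.85, 12.22, 4.19, 7.10 and 9.34 in FGF21 samples and 11.89, 10.30, 12.09, 11.07 and 10.81 in control samples. Slow Tnnc1 was at 7.51, 6.74, 6.29, 6.13 and 12.40 in aFGFR1/KLB samples, 12.16, 8.90, 5.97, 6.47 and 6.24 in FGF21 samples and 8.54, 5.71, 8.16, 6.91 and 7.00 in control samples. For Tnnc1, aFGFR1/KLB 45 stood alone in its group, while for Tnnc2 aFGFR1/KLB 41 was also high.

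The Z-disc genes had a median range of 5.97, against 7.65 for the thick filament and 7.85 for the thin filament genes. Actn3, the alpha-actinin of fast fibres, was at 10.53, 5.04, 7.11, 5.41 and 12.17 in aFGFR1/KLB samples, 12.27, 10.24, 5.01, 5.32 and 7.13 in FGF21 samples and 9.46, 8.12, 9.78, 8.27 and 8.08 in control samples. Actn2, the form of all fibres and the heart, was at 8.90, 7.01, 7.29, 6.89 and 11.02 in aFGFR1/KLB samples, 10.64, 8.48, 6.75, 7.21 and 7.40 in FGF21 samples and 8.16, 7.53, 7.91, 7.33 and 7.51 in control samples. The Actn2 range of 4.27 was smaller than the Actn3 range of 7.27, and both had the same 3 highest samples. The calcineurin-binding myozenins, Myoz1 of fast and Myoz2 of slow fibres, came next. Myoz1 was at 10.51, 6.64, 7.59, 6.55 and 11.98 in aFGFR1/KLB samples, 11.99, 10.17, 6.34, 6.32 and 7.46 in FGF21 samples and 9.57, 8.36, 9.84, 8.41 and 8.42 in control samples. Myoz2 was at 7.88, 4.92, 5.68, 5.08 and 10.67 in aFGFR1/KLB samples, 10.21, 7.91, 5.07, 5.01 and 5.36 in FGF21 samples and 7.32, 5.05, 6.93, 6.10 and 6.18 in control samples. Myotilin (Myot), the titin cap Tcap and the PDZ-LIM protein Ldb3 had ranges of 8.25, 6.19 and 6.57, all highest in aFGFR1/KLB 45. Desmin, the intermediate filament that ties Z-discs together, was at 9.36, 8.67, 8.69, 8.53 and 10.61 in aFGFR1/KLB samples, 10.93, 9.25, 8.22, 8.58 and 8.49 in FGF21 samples and 8.89, 8.55, 9.02, 8.39 and 8.64 in control samples. In 13 samples Des lay between 8.22 and 9.36, and it was above 10 in aFGFR1/KLB 45 and FGF21 36 alone.

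The calcium genes covered release, storage, buffering and uptake. Atp2a1, the SERCA pump of fast fibres, was at 11.02, 5.95, 8.26, 5.90 and 12.69 in aFGFR1/KLB samples, 12.85, 10.45, 5.37, 6.44 and 7.77 in FGF21 samples and 10.03, 8.70, 10.20, 9.19 and 8.90 in control samples. Pvalb, the calcium buffer of fast fibres, was at 11.65, 6.00, 8.45, 5.15 and 12.91 in aFGFR1/KLB samples, 13.01, 11.53, 4.82, 6.78 and 8.62 in FGF21 samples and 11.34, 9.81, 11.84, 10.42 and 10.07 in control samples. Both followed the fast myosins, with all controls inside the range of the treated samples. The calcium release channel Ryr1, the voltage sensor Cacna1s that opens it, the store protein Casq1 and triadin (Trdn), which links store and channel, had ranges of 6.49, 4.84, 6.41 and 6.76. Cacna1s was below the filter level in 9 samples and reached 8.18 in aFGFR1/KLB 45 and 8.28 in FGF21 36. Sarcolipin (Sln), a small protein that uncouples the SERCA pump and is known for heat production in muscle, was at 5.29, 4.15, 4.27, 3.97 and 9.22 in aFGFR1/KLB samples, 7.85, 5.81, 4.06, 4.18 and 4.25 in FGF21 samples and 5.61, 3.96, 5.27, 4.39 and 4.67 in control samples. Sln was also below the filter level in 9 samples and reached 9.22 in aFGFR1/KLB 45 and 7.85 in FGF21 36, with 5.81 as the next highest. Its other probe set had a range of 0.60.

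Ckm, the muscle creatine kinase that buffers ATP, followed the fast genes. It was at 12.05, 6.05, 8.89, 5.84 and 13.49 in aFGFR1/KLB samples, 13.58, 11.63, 5.74, 6.98 and 8.77 in FGF21 samples and 11.04, 9.46, 11.51, 10.05 and 9.88 in control samples. Myoglobin, which binds oxygen in slow and oxidative muscle, did not. Mb was at 12.30, 11.83, 12.01, 12.35 and 13.69 in aFGFR1/KLB samples, 13.25, 12.24, 9.70, 11.56 and 10.92 in FGF21 samples and 11.33, 8.90, 11.33, 11.07 and 10.70 in control samples. The 2 aFGFR1/KLB samples lowest in Acta1, 42 and 44, had 11.83 and 12.35 for Mb, above all 5 controls. FGF21 38, with Acta1 at 5.09, had 9.70 for Mb, below all controls except control 32. Of the 33 further probe sets of the members, 21 had means above the filter level, and 19 of those 21 were highest in aFGFR1/KLB 45 or FGF21 36. The other Mb probe set had a mean of 5.82 and a range of 0.43, so the Mb values rest on 1 probe set.

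Fast and slow genes did not keep the same balance in all samples. Levels of different probe sets cannot be compared, so each gene was taken as its difference between samples. aFGFR1/KLB 41 was above FGF21 37 for 13 of 13 fast members, with a median difference of 0.43 and a range from 0.12 for Myl1 to 1.76 for Myh2. For the 7 slow members the order was turned: aFGFR1/KLB 41 was below FGF21 37 for 7 of 7. The median was -1.28, with a range from -2.03 for Myh7 to -0.03 for Myoz2. Mybpc1, a slow form outside this list, went the other way, by 0.71. These 2 samples, the next highest of their groups after aFGFR1/KLB 45 and FGF21 36, were picked with their values known. Acta1 was at 13.37 in aFGFR1/KLB 41 and at 13.06 in FGF21 37.

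**Figure D2:**
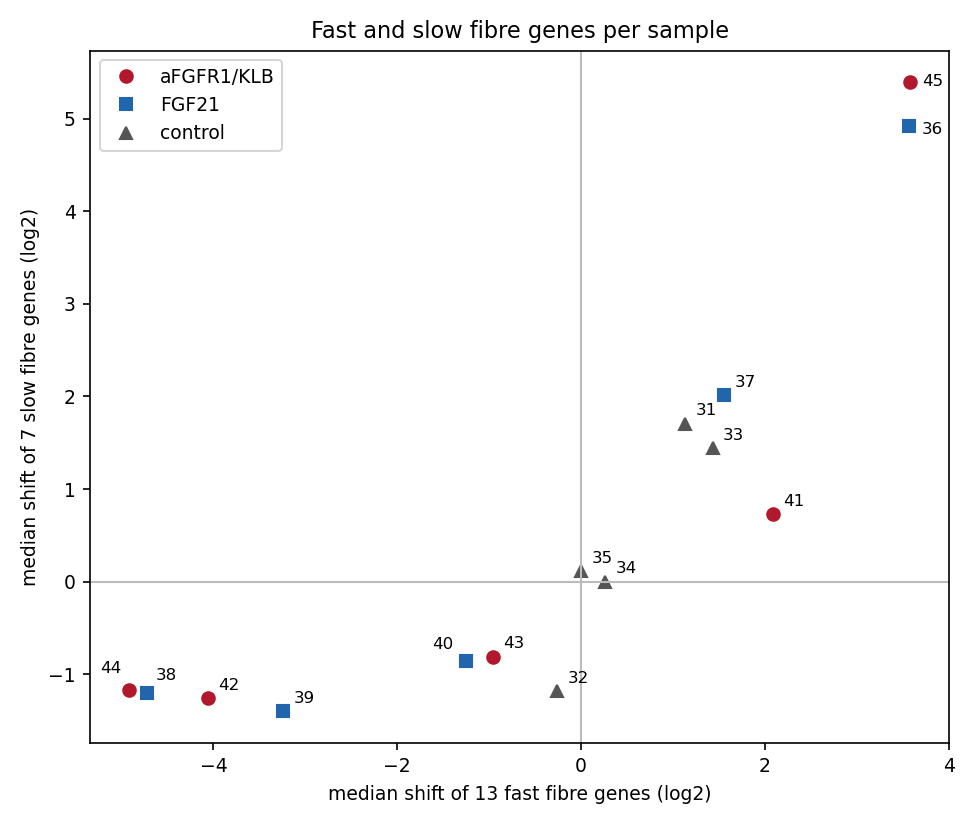
Median difference from the 15-sample median over the 13 fast members (x axis, log2) and the 7 slow members (y axis, log2), 1 point per sample, labelled by sample number, for aFGFR1/KLB, FGF21 and control mice. aFGFR1/KLB 45 and FGF21 36 are near 3.6 on the x axis and at 5.39 and 4.92 on the y axis, and in the samples at the left the slow genes are no lower than -1.40.

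The highest sample of each treated group exceeded the next highest of its group more in slow than in fast genes, as the plot of fast against slow genes shows. aFGFR1/KLB 45 was above aFGFR1/KLB 41 by a median of 1.30 for the fast members (1.01 to 1.99) and by 4.66 for the slow members (2.79 for Myoz2 to 5.38 for Myh7). FGF21 36 was above FGF21 37 by 1.81 for the fast (0.70 to 3.17) and 2.91 for the slow members (2.30 to 3.37). Some fast members were already high in the next highest samples, such as Tnnc2 at 12.68 in aFGFR1/KLB 41 and 12.22 in FGF21 37. Others were lower, such as Mybpc2 at 9.69 and 9.45. Whether high signal narrowed the gaps of the fast members was not tested. Between the 2 highest samples the fast members hardly differed: aFGFR1/KLB 45 was above FGF21 36 for 7 and below for 6, with a median of 0.02. The slow members were higher in aFGFR1/KLB 45 for 6 of 7, with a median of 0.34.

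Single isoform pairs showed the same contrast between aFGFR1/KLB 41 and FGF21 37. The differences were 0.71 for Myh4 and -2.03 for Myh7, 0.42 for Mylpf and -0.71 for Myl2, and 0.12 for Myl1 and -1.23 for Myl3. In the troponins they were 0.51 for Tnnt3 and -1.35 for Tnnt1, 0.43 for Tnni2 and -1.28 for Tnni1, and 0.46 for Tnnc2 and -1.38 for Tnnc1. The pairs Mybpc2 and Mybpc1 (0.25 and 0.71) and Actn3 and Actn2 (0.29 and 0.42) did not split in this way, and of these Actn2 is not a slow-fibre gene. Control 32 was the other sample with a low slow share: its median difference from the 15-sample median was -0.26 for the fast and -1.18 for the slow members. In the low samples the fast genes were further down than the slow genes, with medians of -4.91 and -1.17 in aFGFR1/KLB 44 and of -4.72 and -1.20 in FGF21 38, but the slow genes were there close to the filter level, which leaves them little room to be lower. Each of these contrasts is between single mice and has no replicate.

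The comparison of aFGFR1/KLB with control mice asks whether the antibody changed muscle transcripts in brown fat. No member passed the test: 0 of 38 were called by limma at an adjusted p under 0.05, against 5.18% of all genes tested (2.69% called higher and 2.49% lower). At an unadjusted p under 0.05 it was 1 of 38 (Mb), against 2558 of the 13174 genes tested. 12 members were higher and 26 lower, with a median log2 fold change of -0.28, against -0.02 over all genes tested. The 13 fast members were lower in 12 cases, with a median of -1.55, and the 7 slow members higher in 4, with a median of 0.07. Acta1 averaged 9.73 ± 4.42 in aFGFR1/KLB samples and 11.96 ± 0.75 in control samples (SD, n = 5 each), a difference of -2.22 ± 1.93 (SE, limma adjusted p = 0.593). Myh4 differed by -1.78 ± 1.94 (limma adjusted p = 0.683), Myh7 by 0.07 ± 1.58 (limma adjusted p = 0.989), and Sln by 0.61 ± 0.94 (limma adjusted p = 0.793).

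These averages depended on single mice. The median over members was -1.32 without aFGFR1/KLB 45 and 0.25 without aFGFR1/KLB 44. Myh7 was -1.28 without aFGFR1/KLB 45, and Sln -0.35. In both genes aFGFR1/KLB 45 was far from the other 4 mice of its group. The median SE of a member was 1.40, so differences of this size between groups of 5 were not detectable.

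**Figure D3:**
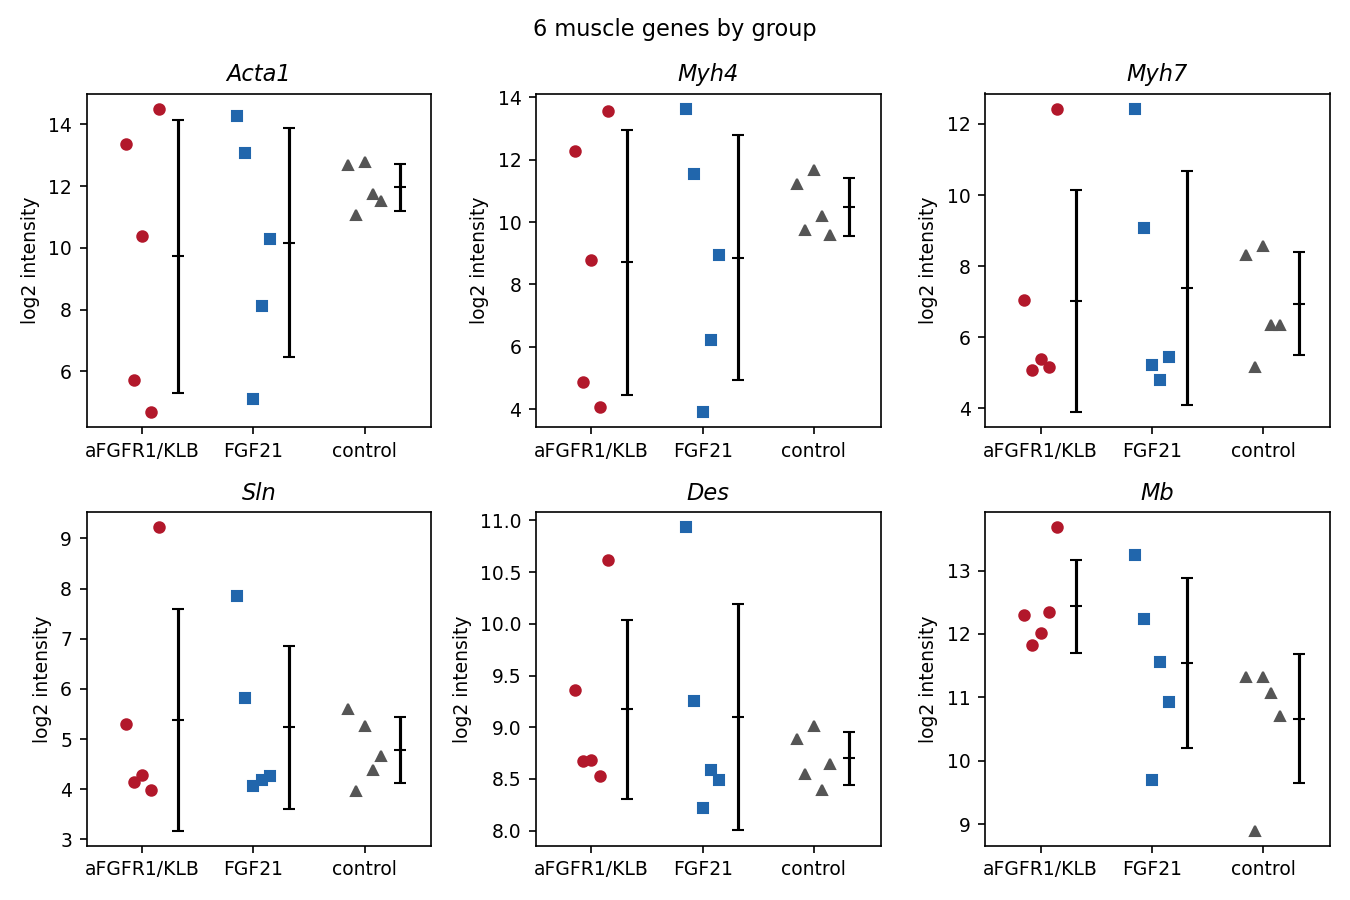
Log2 intensity of 6 muscle genes, 1 panel per gene (y axes do not start at 0), in aFGFR1/KLB, FGF21 and control mice. Points are single mice, and the bars give mean ± SD (n = 5 each). For Mb all 5 aFGFR1/KLB values are above all 5 control values, and in the other panels the control values overlap those of both treated groups.

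The same question was asked of the hormone. With FGF21, 0 of 38 members were called by limma against control, against 6.32% of all genes tested (2.64% called higher and 3.68% lower). At an unadjusted p under 0.05 it was 0 of 38, against 2686 of the 13174 genes tested. 11 members were higher and 27 lower, with a median log2 fold change of -0.52, against -0.02 over all genes. All 13 fast members were lower, with a median of -1.47, and 5 of the 7 slow members were higher, with a median of 0.35. Myh1 had the largest difference, with 7.86 in FGF21 samples and 10.11 in control samples on average, or -2.25 ± 2.07 (SE, limma adjusted p = 0.605). Acta1 differed by -1.79 ± 1.93 (limma adjusted p = 0.669), Myh7 by 0.45 ± 1.58 (limma adjusted p = 0.909), and Des by 0.40 ± 0.47 (limma adjusted p = 0.700).

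Without FGF21 36 the median over members was -1.45, and without FGF21 39 it was 0.05. Myh7, Sln and Des changed sign without FGF21 36, to -0.81, -0.20 and -0.061. No member had FGF21 and control groups that did not overlap, against 5.25% of all genes tested. Both comparisons share the control mice.

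The direct comparison of the antibody with FGF21 asks whether the 2 agonists of the receptor complex differ. For the muscle genes 0 of 38 were called by limma, against 0.372% of all genes tested (0.129% called higher and 0.243% lower). At an unadjusted p under 0.05 it was 0 of 38, against 1778 of the 13174 genes tested. 24 members were higher with the antibody and 14 lower, with a median of 0.08, against 0.01 over all genes. The median was -0.86 without aFGFR1/KLB 45 and 1.01 without FGF21 36. No member had groups that did not overlap, against 4.69% of all genes tested.

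Myoglobin was singled out among the members after its values were seen. Its mean was 12.44 ± 0.73 in aFGFR1/KLB samples, 11.54 ± 1.34 in FGF21 samples and 10.66 ± 1.02 in control samples (SD, n = 5 each). All 5 aFGFR1/KLB values, from 11.83 up, were above all 5 control values, which reached 11.33. Its aFGFR1/KLB and control groups did not overlap, which held for 1 of 38 members. That share was below the 8.61% of all genes tested. The difference was 1.77 ± 0.61 (SE), or 3.42-fold, with a limma adjusted p of 0.113, which does not pass. FGF21 against control was 0.87 ± 0.61 (limma adjusted p = 0.473), and the antibody against FGF21 0.90 ± 0.61 (limma adjusted p = 0.521).

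**Figure D4:**
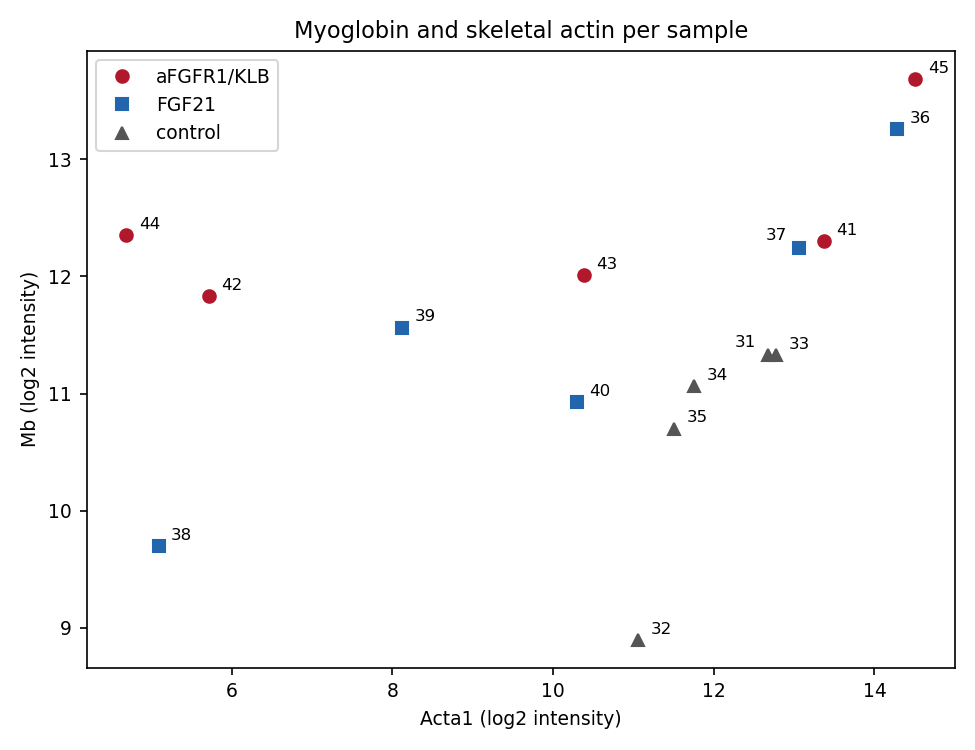
Mb (y axis) against Acta1 (x axis), both in log2 intensity, 1 point per sample, labelled by sample number, for aFGFR1/KLB, FGF21 and control mice. At Acta1 values below 6, aFGFR1/KLB 42 and 44 have Mb at 11.83 and 12.35, and FGF21 38 has Mb at 9.70. Control 32 has the lowest Mb at an Acta1 value of 11.06.

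Mb followed skeletal actin in part, as the plot of Mb against Acta1 shows. With the Acta1 value of each sample as a covariate, a fit chosen after the data were seen, Mb was 2.25 ± 0.49 higher with the antibody than in controls (SE, limma adjusted p = 0.0239). With Tnnc2 in place of Acta1 it was 2.23 ± 0.47 (limma adjusted p = 0.0194), and with arrays weighted by their noise 1.70 ± 0.48 (limma adjusted p = 0.0222). Over all 30 alternatives the limma adjusted p lay between 0.0194 and 0.241, with 3 under 0.05. With the Acta1 covariate FGF21 against control was 1.25 ± 0.48 (limma adjusted p = 0.149). The covariate fits were read for Mb alone and not for the other members. Acta1 itself averaged lower with the antibody than in controls, by -2.22 ± 1.93 (SE). Control 32 had an Mb value of 8.90, well below the other controls, and without it the antibody difference was 1.33. The mean over both Mb probe sets gave 0.89.

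Many other genes of striated muscle were highest in the same samples. Of 31 further sarcomere genes measured, 29 were highest in aFGFR1/KLB 45 or FGF21 36. By the same count 14 of 21 macrophage markers were, against 1 of 16 brown adipocyte markers. The share over all genes was not counted, so this count alone does not show that a gene followed the members. Myom2, an M-band protein of fast fibres, was at 9.69, 4.12, 6.91, 3.55 and 11.59 in aFGFR1/KLB samples, 11.54, 8.67, 3.68, 4.73 and 6.07 in FGF21 samples and 8.37, 6.69, 8.25, 7.45 and 7.19 in control samples. Smpx and Klhl41, small and kelch-type muscle proteins, had ranges of 7.51 and 6.87. The median over its tested genes lay 3.05 above the 15-sample medians in aFGFR1/KLB 45 and 2.77 above in FGF21 36. Of the 27 tested, 1 was called in each comparison with control. That share was no larger than over all genes tested, 5.18% with the antibody and 6.32% with FGF21. The called gene was Myl6b, a light chain of slow muscle and non-muscle cells, and it fell. Myl6b was at 6.03, 6.47, 6.20, 6.40 and 6.11 in aFGFR1/KLB samples, 6.14, 6.36, 6.10, 6.20 and 6.40 in FGF21 samples and 6.62, 6.59, 6.62, 6.69 and 6.55 in control samples. It fell by 0.37 with the antibody and by 0.37 with FGF21 (limma adjusted p = 0.0242 and 0.0207), without overlap between either treated group and the controls. The antibody call was lost when any 1 of 6 samples was left out (adjusted p up to 0.0633), the FGF21 call without FGF21 39 (0.0517), and both with arrays centred on ribosomal protein genes (0.379 and 0.216).

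**Figure D5:**
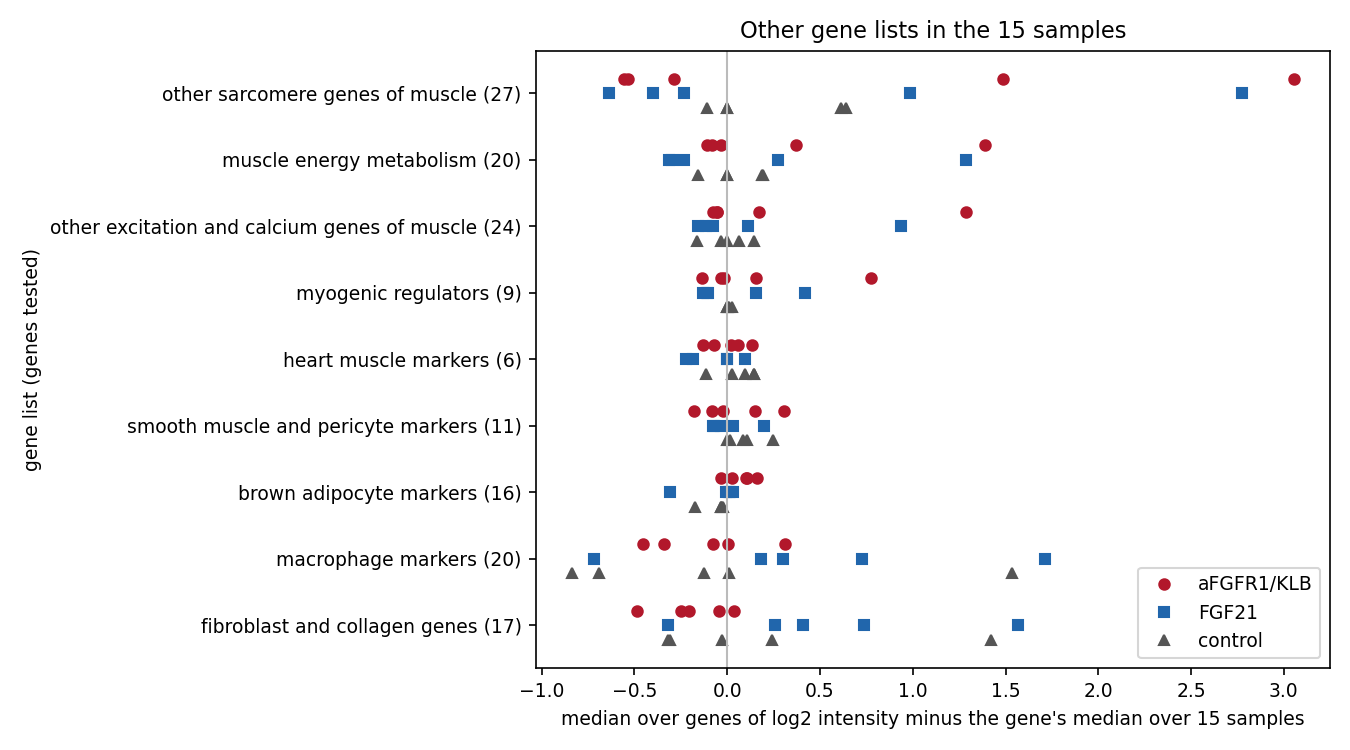
Median difference from the 15-sample median (log2) over the tested genes of each list (y axis, number tested in brackets), 1 point per sample, for lists of other striated muscle genes and of cell-type markers, in aFGFR1/KLB, FGF21 and control mice. The 4 upper lists have aFGFR1/KLB 45 and FGF21 36 at the top, the macrophage and collagen lists have FGF21 36 and control 34, and the heart and brown adipocyte lists have neither aFGFR1/KLB 45 nor FGF21 36 at the top.

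Of 27 further excitation and calcium genes, 17 were highest in those 2 samples. Hrc, a calcium-binding protein of the store, had a range of 4.51, the counter-ion channel Tmem38a of 3.73 and the junction protein Jph1 of 3.64. Of the 24 tested, 1 was called with the antibody against control, a share no larger than the 5.18% of all genes tested. It was Atp2a2, the SERCA pump of slow muscle, heart and many non-muscle cells. Atp2a2 was at 11.70, 11.94, 11.77, 11.95 and 11.72 in aFGFR1/KLB samples, 11.50, 11.73, 11.64, 11.76 and 11.66 in FGF21 samples and 11.42, 11.51, 11.55, 11.43 and 11.52 in control samples. Its values with the antibody, from 11.70 up, were all above the control values, which reached 11.55, and it was not high in aFGFR1/KLB 45. It rose by 0.33 ± 0.07 with the antibody (SE, limma adjusted p = 0.0129), and was 0.18 ± 0.07 higher with FGF21 (limma adjusted p = 0.151). The difference between the antibody and FGF21 was 0.16 ± 0.07 (limma adjusted p = 0.339). The antibody call held in all 15 fits without 1 sample (adjusted p up to 0.0414) and was lost when arrays were centred on ribosomal protein genes (0.41, adjusted p = 0.161). Over its 28 alternatives the adjusted p lay between 0.000658 and 0.161.

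Some of the muscle energy genes followed the members, with a median range over the list of 1.81. Ckmt2, the mitochondrial creatine kinase, was at 9.86, 3.61, 6.60, 4.60 and 11.73 in aFGFR1/KLB samples, 11.15, 8.99, 4.24, 4.18 and 5.92 in FGF21 samples and 8.94, 6.66, 8.92, 8.12 and 7.83 in control samples. The glycogen phosphorylase Pygm had a range of 6.26. Of the 21 genes measured in this list, which also holds Mb and Actn3, 14 were highest in aFGFR1/KLB 45 or FGF21 36. The count was the same for the macrophage markers, 14 of 21. By limma 0 of the 20 tested were called against control in either comparison. At an unadjusted p under 0.05 there were 4 with the antibody and 0 with FGF21, against 2558 and 2686 of all 13174 genes tested. The list median was 1.39 above in aFGFR1/KLB 45 and 1.29 above in FGF21 36.

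Regulators of muscle identity had smaller ranges. Myf6, a myogenic factor of mature fibres, was at 6.57, 4.90, 4.84, 4.62 and 8.13 in aFGFR1/KLB samples, 7.51, 5.95, 4.64, 4.15 and 4.87 in FGF21 samples and 5.69, 5.04, 5.61, 5.11 and 4.95 in control samples. Vgll2, a TEAD cofactor, and Mef2c had ranges of 2.57 and 2.43. The list lay 0.77 above in aFGFR1/KLB 45 and 0.42 above in FGF21 36, and 0 of the 9 tested were called against control by limma. At an unadjusted p under 0.05 there were 0 with the antibody and 1 with FGF21, against 2558 and 2686 of all 13174 genes tested.

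Markers of heart and of smooth muscle were followed as other contractile cells. The heart list lay at -0.07 and -0.18 from its medians in aFGFR1/KLB 45 and FGF21 36, and 0 of its 6 tested genes were called against control by limma. At an unadjusted p under 0.05 there was 1 in each comparison, against 2558 with the antibody and 2686 with FGF21 of all 13174 genes tested. The widest genes of the heart list were the cardiac actin Actc1 (2.12), highest in aFGFR1/KLB 45, Ryr2 (1.56) and Myl4 (1.40). The smooth muscle and pericyte list lay 0.31 above its medians in aFGFR1/KLB 45, its highest sample, and 0.20 above in FGF21 36. In that list Synpo2, an actin-bundling protein found in smooth and striated muscle, was at 9.19, 6.78, 7.40, 5.93 and 11.09 in aFGFR1/KLB samples, 11.06, 8.46, 7.31, 6.32 and 7.32 in FGF21 samples and 8.96, 8.02, 9.01, 8.02 and 8.21 in control samples. Synpo2 thus followed the skeletal genes, while Acta2 (range 1.86) and Pdgfrb (1.55) were highest in control 34. Cspg4, a pericyte proteoglycan, was the 1 called gene of the 11 tested in that list, against 5.18% of all genes with the antibody. It fell by 0.49 with the antibody (limma adjusted p = 0.0211). That call was lost when any 1 of 5 samples was left out (adjusted p up to 0.0595) and with arrays centred on ribosomal protein genes (0.311).

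Markers of brown adipocytes lay at -0.03 and -0.31 from their list medians in aFGFR1/KLB 45 and FGF21 36. The widest genes were Elovl3, a fatty acid elongase (3.11), the transcription factor Zic1 (2.64) and the deiodinase Dio2 (2.58). Of the 16 tested, 5 were called with the antibody against control and 3 with FGF21, against 5.18% and 6.32% of all genes tested. They are named here after their values were seen. Elovl3 rose by 2.10 with the antibody and by 1.60 with FGF21 (limma adjusted p = 0.000331 and 0.00111), and Dio2 rose by 1.16 and by 1.89 (0.0142 and 0.000594). Prdm16, a transcription factor of brown adipocytes, fell by 0.51 with the antibody and by 0.87 with FGF21 (limma adjusted p = 0.0475 and 0.00234). Ucp1 and Ppargc1a, a coactivator of heat-producing genes, rose with the antibody, by 0.19 and 0.60 (limma adjusted p = 0.0494 and 0.0486). These 2 calls, and that of Prdm16 with the antibody, lay just under the threshold. For the called brown adipocyte genes, fits without single samples or with other scaling were not read. Macrophage markers were led by Gpnmb (6.09), Lgals3 (4.69) and Cd68 (4.31), and collagen and matrix genes by Col1a1 (3.63), Fn1 (3.13) and Lum (2.88). The part of these cells in the muscle values was not tested.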

How the data were processed

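Brown fat RNA of 15 mice, 5 per group by the sample titles, was measured on Affymetrix arrays. The deposited values are normalised intensity per probe set on a linear scale (5.58 to 34652), made by the authors with RMA per the submitters' processing notes; its version is not given in the sources used here. No further normalisation was applied before log2.

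Of 45101 probe sets, 34958 had 1 gene symbol in GEO's platform annotation, 932 had several and 9211 were not listed. Each of 18194 genes was read from its probe set with the highest mean, and the 13174 with a mean over 5.06, the 40th percentile, were tested. The members and lists were chosen with earlier results of these data known.

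A one-way model over all 15 samples was fitted with lmFit and eBayes of limma (version 3.58.1, R 4.3.3) and tested two-sided, with Benjamini-Hochberg adjustment over all genes within a comparison and a threshold of 0.05. The fit was tested on simulated data. Lists are described by counts and medians. All members are named, as are, of each other list described, up to 3 genes with the largest range, and any called gene of the muscle lists; values in every sample are given for the isoform pairs, Acta1, Ckm, Atp2a1, Sln, Des, Tpm1 and Pvalb, and Mb, Myh1, Myh2 and the other genes with values in full were added after their values were seen. Alternatives covered each sample left out, the probe set, the filter, the scaling, a pseudocount of 16 and the variance model.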

Additional observations from a re-analysis of the deposited data

Results flagged for a closer look

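In 114 groups of 5 values, the 38 muscle genes in 3 groups, 5 had a highest or lowest mouse whose gap to the next, divided by the range of its group, exceeded Dixon's 95% critical value. Chance flags about 1 group in 20, and the members are not independent, since they move together. 4 of the 5 concern aFGFR1/KLB 45, which was highest of its group for the slow genes Myh7 (gap over range 0.734) and Tnnc1 (0.78), for Sln (0.749) and for Mb (0.718). In Myh7 and Tnnc1 this mouse reached 12.41 and 12.40, and in Sln 9.22. The fifth was control 32, the lowest control for Mb (0.742), at 8.90.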

How the results depend on the processing

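No paired analysis was possible because replicate numbers do not repeat between the groups. The count of members called by limma stayed at 0 in each comparison under all alternatives without a covariate except 1. With array weights it was 1 for aFGFR1/KLB against control (Mb, 1.70). With the Acta1 or Tnnc2 covariate, added after the data were seen, Mb (2.25 and 2.23) also passed in that comparison. The covariate fits were read for Mb alone, so whether other members pass in them is not known. Leaving out single samples gave medians over members of -1.32 to 0.25 for aFGFR1/KLB against control, -1.45 to 0.05 for FGF21 against control and -0.86 to 1.01 between the treatments. The same fits gave -1.28 to 0.55 and -0.81 to 1.10 for Myh7 with aFGFR1/KLB and FGF21, -0.35 to 0.96 and -0.20 to 0.75 for Sln, and 0.11 to 0.63 and -0.061 to 0.62 for Des, while Acta1 (-3.42 to -0.96 and -2.81 to -0.52) and Myh4 (-2.99 to -0.62 and -2.83 to -0.40) stayed below 0.

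Signs turned in 3 other fits. Without FGF21 36 and control 34 together, Myh7 was -0.078 with aFGFR1/KLB and -0.96 with FGF21, and with FGF21 Sln was -0.30 and Des -0.14. With array weights Myh7 was -0.56 with aFGFR1/KLB and -0.80 with FGF21, and with FGF21 Sln was -0.29 and Des -0.082. Without aFGFR1/KLB 45 and FGF21 36 together, added after the data were seen, Myh7 was -1.28 and -0.81, Sln -0.35 and -0.20, and Des with FGF21 -0.061. In these fits fewer or down-weighted samples enter; no other cause was tested.

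The median range of the members lay between 6.37 and 7.24 across the settings (7.08 as reported), and the fast minus slow difference between aFGFR1/KLB 41 and FGF21 37 between 1.50 and 1.81 (1.81 as reported). Centring on ribosomal protein genes lowered the calls over all genes from 682 to 141 with aFGFR1/KLB (80.1% higher, against 51.9%) and from 833 to 186 with FGF21 (65.1% higher, against 41.8%), and between the treatments from 49 to 8. The ribosomal list itself lay 0.41 above its medians in control 34 and 0.26 above in FGF21 36. In the other samples it lay between -0.14 and 0.14. The part of this shift in the lost calls was not tested. Low signal limits Sln, Cacna1s and the slow genes in low samples, and 1 probe set carries Mb.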
